A study of Mus musculus with 20 samples.

Results

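Transcript levels of 8 genes of the TGF-beta and BMP family were examined in the mouse outer eyecup: the TGF-beta isoforms *Tgfb1*, *Tgfb2* and *Tgfb3*, the bone morphogenetic proteins *Bmp2*, *Bmp4* and *Bmp7*, the activin subunit *Inhba*, and *Tgfbi*, a TGF-beta-induced protein of the extracellular matrix that is not itself a ligand. They were chosen by gene symbol, are 8 of the 24411 genes in the deposited table, and all passed the filter on low counts that kept 18807 genes. RNA of the RPE and choroid was sequenced from C57BL/6 mice in 4 groups of 5, WT and *Stra6-/-*, each kept for 12 weeks after weaning at about 28 days on a vitamin A sufficient diet (VAS, 4 IU per g) or a vitamin A deficient diet (VAD, 0 IU per g). Per the study's methods, each sample pooled both eyecups of 1 mouse, the retina had been peeled off after dispase, the *Stra6-/-* line is a knockout on the C57BL/6J background, WT mice were purchased, and pups of every group were raised on chow before weaning. *Stra6* encodes the receptor through which cells take up retinol from its blood carrier, and the study compared the groups to learn how the eye adapts to different vitamin A supply.

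Ligands of this family are secreted as dimers, bind pairs of type I and type II serine/threonine kinase receptors and act through SMAD proteins, SMAD2 and SMAD3 for TGF-beta and activin, SMAD1, SMAD5 and SMAD9 for BMPs. TGF-beta is stored in the matrix in a latent form that integrins and thrombospondin can activate, whereas BMPs are held in check by secreted antagonists such as noggin. In the eye, TGF-beta is known for driving matrix synthesis and epithelial-mesenchymal transition of RPE cells, and BMPs for patterning the optic cup and for regulating RPE and scleral growth. Retinoic acid is a known regulator of several of these genes in development.

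Some libraries stood apart from the rest of their group or held unlike marks of sex. Values are the authors' read counts divided by 1 size factor per library (normalized values), and 13331903 to 21878614 reads lay behind each library. *Stra6* was at 2414 to 2742 in VAS WT and 564 to 694 in VAS *Stra6-/-*, but at 1973 to 2393 in the libraries labelled VAD *Stra6-/-*, above the 669 to 1529 of VAD WT. Set against the summed level of 10 RPE markers, *Stra6* was lower in both groups labelled *Stra6-/-*. Per 1000 of that sum it was 20.1 to 23.7 in VAS WT and 19.5 to 27.5 in VAD WT. It was 4.80 to 5.79 in VAS *Stra6-/-* and 3.97 to 4.92 in the libraries labelled VAD *Stra6-/-*. The sum itself differed between the groups and was highest in the last, so the ratio there cannot check the label. Which exons the knockout allele lacks is not given in the sources used here. The female transcript *Xist* and the Y-linked *Ddx3y* also divided the libraries: VAS WT held *Ddx3y* (981 to 1193) with *Xist* at 7.69 to 38.4, VAS *Stra6-/-* held *Xist* (15320.2 to 18052) with *Ddx3y* at 0 to 1.02, and those labelled VAD *Stra6-/-* held both (*Xist* 3569.8 to 4279.6, *Ddx3y* 741 to 969.7). Per the methods each sample is 1 mouse, and how such a library came to hold both is not given in the sources used here. Whether these libraries stand for 5 single mice could therefore not be checked. The labels do not give the sex. In the VAS groups genotype and this division cannot be told apart, nor can diet and this division in *Stra6-/-*. The comparison with VAD WT and the interaction use the same libraries and share this limit. Within VAD WT, replicates 2 and 4 had *Xist* at 10912 to 11767 and *Ddx3y* at 75.2 to 80.5, above the *Ddx3y* of VAS *Stra6-/-*. Replicates 1, 3 and 5 had *Ddx3y* at 1041 to 1133 and *Xist* at 174 to 234, above the *Xist* of VAS WT. So VAD WT libraries also held some of both transcripts, and whether each stands for a single mouse could not be checked either. The members' results that use VAD WT are given with and without replicates 2 and 4.

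Tissue markers also differed between groups. The sum of the 10 RPE markers, among them *Rpe65*, was 111586 to 127825 in VAS WT, 31712 to 57365 in VAD WT, 114000 to 119910 in VAS *Stra6-/-* and 486346 to 531052 in the libraries labelled VAD *Stra6-/-*. The 10 markers of surface epithelium, such as the corneal keratin *Krt12*, summed to 509890 to 609070, 322795 to 910480, 718921 to 745311 and 22069.7 to 28183 in the same order. Markers of sclera and fibroblasts (10 genes, *Col1a1* and *Lum* among them) summed to 42014 to 44539 in VAS WT, 41759.9 to 43127 in VAS *Stra6-/-*, 216972 to 229811 in the libraries labelled VAD *Stra6-/-*, 47638 to 50017 in VAD WT replicates 1, 3 and 5, and 158011 to 162204 in replicates 2 and 4. No marker of the 10 lists was at 0 in all libraries of a group. In bulk samples, fewer cells of a type and less RNA per cell cannot be told apart.

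Promoter sequence was at hand for 5 members, *Tgfb1*, *Tgfb2*, *Tgfbi*, *Bmp4* and *Inhba* (RefSeq, GRCm38.p6), as up to 250 bases ending at the base before the annotated gene start. Those of *Tgfb2* and *Bmp4* are shown because both transcripts were highest in the libraries labelled VAD *Stra6-/-* and both windows hold an E-box, and that of *Tgfbi* because its transcript was lowest there. *Tgfb2* lies at chr1:186622792-186705989 on the minus strand and its window at chr1:186705990-186706239. *Bmp4* lies at chr14:46383520-46390669 on the minus strand with its window at chr14:46390670-46390919, and *Tgfbi* at chr13:56609523-56639562 on the plus strand with a window of 187 bases at chr13:56609336-56609522. The other members lie at chr7:25687002-25705077 (*Tgfb1*, plus strand), chr12:86056745-86079041 (*Tgfb3*, minus), chr2:133552159-133562885 (*Bmp2*, plus), chr2:172868012-172940321 (*Bmp7*, minus) and chr13:16011851-16031621 (*Inhba*, plus). Capitals mark the E-box CACGTG and the TATA box TATAAA.
Tgfb2: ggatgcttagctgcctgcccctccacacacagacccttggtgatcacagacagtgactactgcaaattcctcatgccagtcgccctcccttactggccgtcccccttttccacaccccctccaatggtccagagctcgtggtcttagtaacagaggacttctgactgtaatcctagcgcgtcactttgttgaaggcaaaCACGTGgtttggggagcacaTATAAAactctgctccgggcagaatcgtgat
Bmp4: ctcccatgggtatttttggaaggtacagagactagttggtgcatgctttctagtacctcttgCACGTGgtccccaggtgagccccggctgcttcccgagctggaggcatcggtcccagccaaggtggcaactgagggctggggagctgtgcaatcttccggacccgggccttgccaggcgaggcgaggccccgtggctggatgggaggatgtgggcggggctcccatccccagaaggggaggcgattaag
Tgfbi: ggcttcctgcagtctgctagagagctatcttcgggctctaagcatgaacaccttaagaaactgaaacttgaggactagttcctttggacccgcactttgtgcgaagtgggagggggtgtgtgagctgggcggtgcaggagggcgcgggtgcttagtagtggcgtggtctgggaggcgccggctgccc
The E-box began 51 bases before the end of the *Tgfb2* window and 188 bases before that of *Bmp4*. Of 32851 promoters, 6.02% held CACGTG within the same length, 12.4% held TATAAA on either strand, which began 31 bases before the end of the *Tgfb2* window, and 6.25% held TAATCC, the core bound by OTX2 and CRX, found 83 bases before the end in *Tgfb2*. *Inhba* held TATAAA at 91 bases before its window's end. The other motifs searched on both strands, AGGTCA (the half-site of retinoid receptors, in 14% of all promoters), TGANTCA (AP-1, 6.75%), TGACGTCA (the cAMP response element, 1.55%) and the SMAD palindrome GTCTAGAC (0.167%), were in none of the 5 windows. No motif overlapped another. A match is a run of letters and not a shown binding site.

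Members were ordered per kilobase of exon, with all annotated exons of a gene joined. The transcripts expressed can be shorter than that, by an amount that may differ between genes and was not measured. The order of members and the isoform shares below therefore depend on this length. On this scale *Tgfbi* was the most abundant member in VAS WT at 1841 ± 144 normalized values per kb (SD, n = 5). *Bmp4* followed at 596 ± 39.9 and *Tgfb3* at 461 ± 15.4, then *Bmp7* at 198 ± 18.1, *Tgfb1* at 141 ± 12.5, *Tgfb2* at 113 ± 13.1 and *Bmp2* at 97.1 ± 11.2. Ranges of neighbours in this order did not overlap except for *Tgfb2* and *Bmp2*, and *Inhba* was last at 0.152 ± 0.216. In VAS *Stra6-/-* the distance between *Tgfbi* (4018 ± 115 per kb) and *Bmp4* (335 ± 24.5 per kb) was wider. In the libraries labelled VAD *Stra6-/-* the order was another one: *Bmp4* (1330.3 ± 146 per kb) and *Tgfb3* (1282 ± 49.7 per kb) were first, with overlapping ranges, and *Tgfbi* came next at 438 ± 31.8 per kb.

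**Figure D1:**
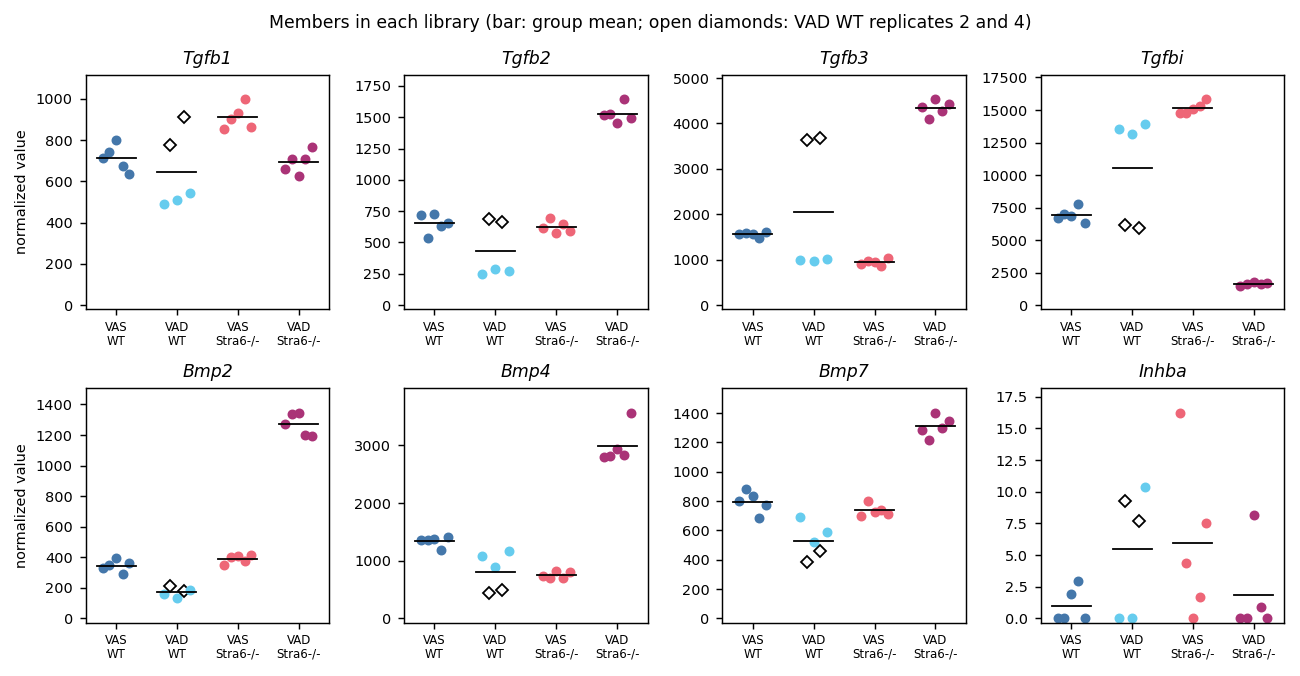
Normalized value (linear axis from 0) of each of the 8 members in the 20 libraries, by group, with the group mean as a bar. *Tgfb2*, *Tgfb3* and the 3 BMPs are highest in the libraries labelled VAD *Stra6-/-*, and *Tgfbi* is lowest there. VAD WT replicates 2 and 4 (open diamonds) lie away from the other VAD WT libraries for *Tgfb1*, *Tgfb2*, *Tgfb3*, *Tgfbi* and *Bmp4*. They also lie below the others, by less, for *Bmp7*.

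*Tgfb1*, the isoform made by many immune and stromal cells, had the narrowest range of the 3 TGF-beta transcripts. In replicates 1 to 5 its normalized value was 716, 742, 799.5, 672 and 636 in VAS WT and 855, 901, 933, 998 and 864 in VAS *Stra6-/-*. On the VAD diet it was 490.4, 776, 511, 913 and 543 in WT and 662, 708, 628, 707 and 765 in the libraries labelled *Stra6-/-*. Every VAS *Stra6-/-* library lay above every VAS WT library, and the VAD WT libraries fell into a low set of 3 and a high set of 2, replicates 2 and 4.

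*Tgfb2*, an isoform with known roles in eye development, had overlapping ranges in the VAS groups, with 716, 537, 726, 632 and 656 in WT and 614, 691, 573, 644 and 590.2 in *Stra6-/-*. In VAD WT it was 252, 687, 291, 665 and 270.4, so that replicates 2 and 4 lay within the range of VAS WT and replicates 1, 3 and 5 far below it, at 252 to 291. The libraries labelled VAD *Stra6-/-* had 1519, 1527, 1450.4, 1643 and 1497, above all others.

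*Tgfb3*, the isoform with the highest level per kb, was 1559.9, 1584, 1555, 1476 and 1617 in VAS WT and 902, 964, 945, 872 and 1038 in VAS *Stra6-/-*. VAD WT held 997, 3646, 976, 3681 and 1006, a 3.69-fold distance between the mean of replicates 2 and 4 and that of replicates 1, 3 and 5. The summed sclera and fibroblast markers stood 3.28-fold higher in the same 2 libraries, and their part in the *Tgfb3* values was not tested. Those labelled VAD *Stra6-/-* had 4352, 4092, 4533, 4268 and 4433.

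The make-up of the 3 isoforms, per kb of the same joined exons, differed accordingly. *Tgfb3* took 64.5% ± 1.96 (SD, n = 5) of their summed level per kb in VAS WT, 49.2% ± 2.64 in VAS *Stra6-/-* and 76.1% ± 1.34 in the libraries labelled VAD *Stra6-/-*. *Tgfb1* took 19.8% ± 1.44, 31.9% ± 2.10 and 8.18% ± 0.646 in the same order, and for either isoform these 3 groups held separate ranges. In VAD WT the share of *Tgfb3* was 65.6% to 67.7% in replicates 1, 3 and 5 and 79.8% and 78.6% in replicates 2 and 4.

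**Figure D2:**
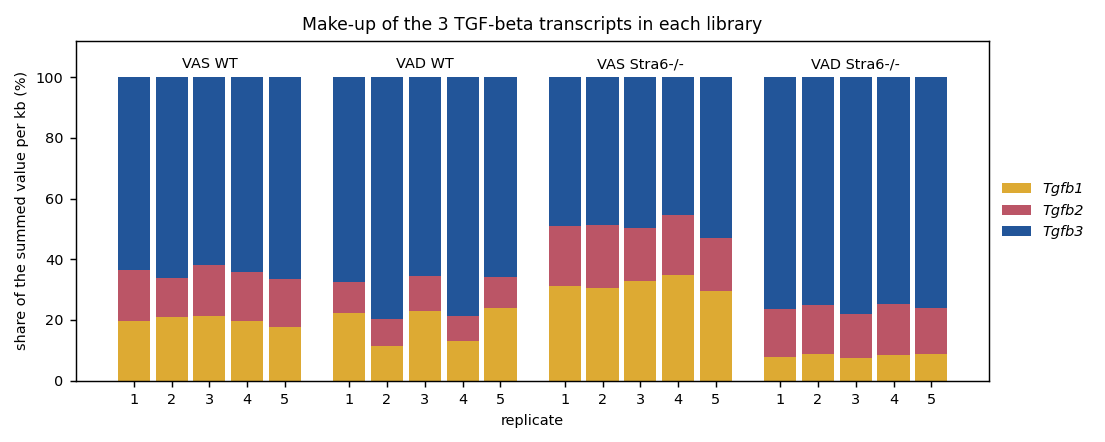
Share (%) of *Tgfb1*, *Tgfb2* and *Tgfb3* in their summed normalized value per kb of exon, 1 bar per library. *Tgfb3* takes the largest share in each library, at 45.5% to 52.9% in VAS *Stra6-/-* and 74.8% to 78.1% in the libraries labelled VAD *Stra6-/-*.

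*Bmp2*, a BMP that RPE cells are known to make, was 331, 347, 398, 289.7 and 361 in VAS WT and 352, 405, 407, 374 and 414 in VAS *Stra6-/-*, ranges that overlapped. It was 160.3, 213, 135, 177 and 185 in VAD WT, below every VAS WT library with or without replicates 2 and 4. The libraries labelled VAD *Stra6-/-* had 1275, 1339.5, 1347, 1199 and 1193. These lowest and highest groups also had the lowest and the highest summed RPE markers, whose part was not tested.

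*Bmp4*, known from dorsal optic cup patterning and present in the adult RPE, was 1362, 1357, 1382, 1185 and 1416 in VAS WT and 734, 708, 819, 700.1 and 805 in VAS *Stra6-/-*. VAD WT held 1076, 448, 891, 488 and 1162, here with replicates 2 and 4 as the low ones. All libraries of these 3 groups lay under the 2797, 2816, 2937, 2833 and 3571 of those labelled VAD *Stra6-/-*. An exon of *Bmp4* overlaps the opposite-strand gene *Gm15217*, as exons of *Tgfb2* and *Tgfb3* overlap opposite-strand noncoding genes, and whether reads were counted by strand is not given in the sources used here.

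*Bmp7*, which is needed for lens and eye formation, varied least among the BMPs. It was 802, 879, 836, 686 and 775 in VAS WT, 698, 800.02, 727, 741 and 713 in VAS *Stra6-/-*, and 692, 384, 524, 461 and 588 in VAD WT, where the highest library lay just above the lowest of VAS WT. The libraries labelled VAD *Stra6-/-* had 1288, 1215, 1403, 1296 and 1343.

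*Inhba*, whose product forms activin A, was close to the limit of detection, with 0 to 3 reads per library in VAS WT, 0 to 9 in VAD WT, 0 to 16 in VAS *Stra6-/-* and 0 to 8 in the libraries labelled VAD *Stra6-/-*. A count of 0 allows up to 3 reads, from counting error alone. All groups overlapped, and none of the 5 comparisons passed the test with all libraries (adjusted p from 0.0832 to 0.421). Its interaction term passed without VAD WT replicate 1 (adjusted p = 0.0392) or 3 (0.0390), VAS *Stra6-/-* replicate 3 (0.0349) or replicate 3 labelled VAD *Stra6-/-* (0.0300).

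*Tgfbi* was lowest in the libraries labelled VAD *Stra6-/-*, where 5 of the ligands were highest. It was 6718, 7023, 6869, 7794 and 6314 in VAS WT and 14775, 14795, 15076, 15278 and 15828 in VAS *Stra6-/-*. VAD WT held 13519, 6194, 13167, 5945 and 13916, with replicates 2 and 4 below the VAS WT libraries and the others between VAS WT and VAS *Stra6-/-*. The libraries labelled VAD *Stra6-/-* had 1458, 1639.9, 1769.8, 1654 and 1729. *Tgfbi* is abundant in corneal epithelium, and the summed surface epithelium markers were 24613 on average in the last group against 554307 in VAS WT and 729524 in VAS *Stra6-/-*, while in VAD WT they were 894309 in replicates 1, 3 and 5 and 323628 in replicates 2 and 4. Their part in the *Tgfbi* values was not tested.

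**Figure D3:**
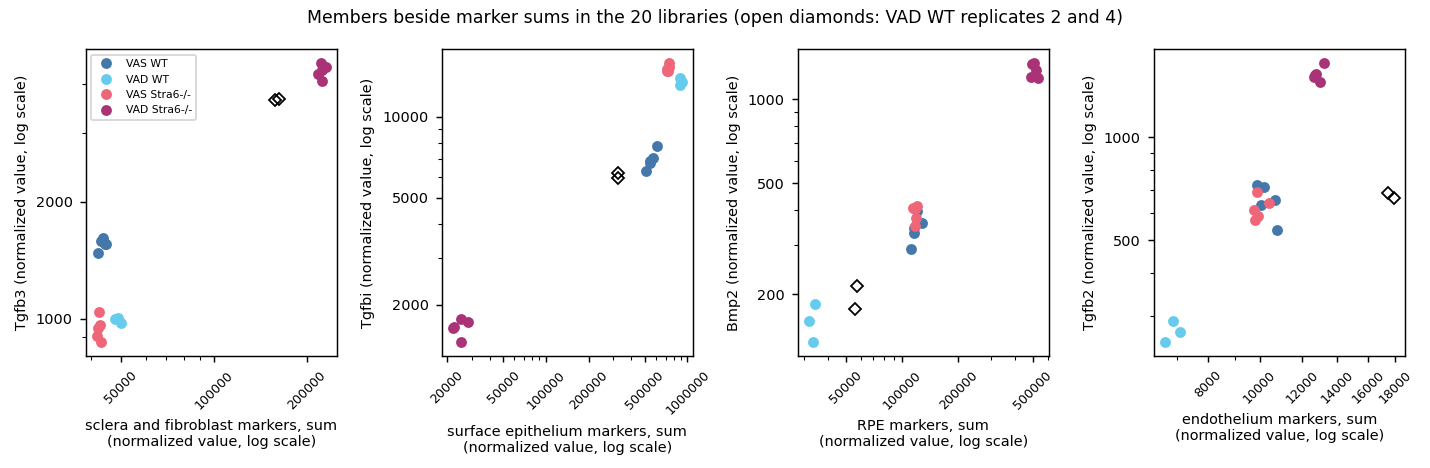
*Tgfb3*, *Tgfbi*, *Bmp2* and *Tgfb2* (y axis) against the summed normalized value of a marker list (x axis), both on log scales, 1 point per library. The pairs were chosen after the values were seen, and no test was run on them. *Tgfb3* is at 3646 or above where sclera and fibroblast markers are at 158011 or above. *Tgfb2* is at 687 and 665 in VAD WT replicates 2 and 4, whose endothelial markers have the highest sums, 17407 and 17879. It is highest, at 1450 to 1643, in the libraries labelled VAD *Stra6-/-*, where these sums are lower, at 12679.5 to 13227.

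Loss of *Stra6* on the VAS diet went with higher *Tgfbi* and lower *Bmp4*. *Tgfbi* rose 2.19-fold (log2 fold change 1.13 ± 0.19, SE; limma on log2(value + 1), adjusted p = 1.15e-04) and *Bmp4* fell 1.78-fold (-0.83 ± 0.19, adjusted p = 0.00278), so that 2 of 8 members passed where 26.6% of all genes did (15.9% higher and 10.8% lower). *Tgfb1* and *Tgfb3* had groups that did not overlap but missed the threshold with all libraries in the fit (0.35 ± 0.13, adjusted p = 0.0541, and -0.72 ± 0.29, adjusted p = 0.0732). The spread in that fit is shared by all groups, VAD WT included. *Tgfb1* passed without any 1 of VAD WT replicates 1 to 4 (adjusted p from 0.0132 to 0.0445) and *Tgfb3* without replicate 2 (0.0259) or 4 (0.0250). Without VAD WT replicates 2 and 4 both passed (adjusted p = 3.16e-04 and 1.38e-10), so that 4 of 8 members passed, against 40% of all genes. *Tgfb2* (-0.06 ± 0.22, adjusted p = 0.867), *Bmp2* (0.18 ± 0.11, adjusted p = 0.243) and *Bmp7* (-0.11 ± 0.11, adjusted p = 0.530) did not pass. Groups did not overlap for 4 members, against 32.5% of all genes, and the median log2 fold change was 0.06 over the members and 0.02 over all genes. Of the surface epithelium markers 5 of 10 were higher in this comparison and 1 lower (median 0.67), and 7 of 7 skeletal muscle markers were higher (median 1.35); their part was not tested.

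With all libraries in the fit, the 3 BMP transcripts were lower in WT on the VAD diet. *Bmp2* fell 1.99-fold (-0.99 ± 0.11, adjusted p = 2.69e-06), *Bmp4* 1.77-fold (-0.83 ± 0.19, adjusted p = 0.00849) and *Bmp7* 1.53-fold (-0.61 ± 0.11, adjusted p = 0.00120). With only the 2 groups in the fit *Bmp2* alone passed, and *Bmp4* (adjusted p = 0.159) and *Bmp7* (0.0625) did not. *Tgfb2* fell 1.66-fold (-0.73 ± 0.22, adjusted p = 0.0378), a call that edgeR on the recovered reads did not make (adjusted p = 0.120) and that was lost without VAS WT replicate 1, 3, 4 or 5, VAD WT replicate 1, 3 or 5, or VAS *Stra6-/-* replicate 4 (adjusted p from 0.0508 to 0.111). These 4 of 8 were lower where 5.5% of all genes were lower and 3.29% higher, 8.78% in all. *Bmp2* and *Bmp4* did not overlap between the groups, as for 6.34% of all genes. *Tgfb1* (-0.18 ± 0.13, adjusted p = 0.469), *Tgfb3* (0.10 ± 0.29, adjusted p = 0.884) and *Tgfbi* (0.50 ± 0.19, adjusted p = 0.109) did not pass, but *Tgfbi* did by edgeR (0.0475) and DESeq2 (0.0138), and by limma without replicate 2 (0.0117) or 4 (0.00691) of VAD WT. Without replicates 2 and 4, 6 members were lower, where 20.3% of all genes were, and *Tgfbi* was higher, 7 of 8 in all against 37.9% of all genes, with no overlap for 6 of 8 against 34%: *Tgfb1* was then at -0.47 ± 0.08, *Tgfb2* at -1.26 ± 0.09, *Tgfb3* at -0.65 ± 0.05, *Bmp2* at -1.11 ± 0.11, *Bmp4* at -0.37 ± 0.09, *Bmp7* at -0.41 ± 0.09 and *Tgfbi* at 0.97 ± 0.06. *Tgfb3* had changed sign, and the adjusted p-values ran from 9.64e-11 for *Tgfbi* to 0.00281 for *Bmp4*. The members' median was -0.40 with all libraries and -0.44 without these 2, against 0.00 and -0.02 over all genes. RPE markers were lower in VAD WT too (9 of 10, median -1.21), and their part was not tested.

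In *Stra6-/-*, the libraries labelled VAD differed from the VAS libraries in 7 of 8 members, where 53.2% of all genes did (24.4% higher and 28.8% lower). *Tgfb3* rose 4.59-fold (2.20 ± 0.29, adjusted p = 1.50e-06), *Bmp4* 3.96-fold (1.98 ± 0.19, adjusted p = 1.66e-08), *Bmp2* 3.25-fold (1.70 ± 0.11, adjusted p = 2.00e-11), *Tgfb2* 2.45-fold (1.30 ± 0.22, adjusted p = 2.93e-05) and *Bmp7* 1.78-fold (0.83 ± 0.11, adjusted p = 2.14e-06). *Tgfbi* fell 9.19-fold (-3.20 ± 0.19, adjusted p = 4.70e-12) and *Tgfb1* 1.31-fold (-0.39 ± 0.13, adjusted p = 0.0170). None of these 7 overlapped between the groups, as for 51.3% of all genes, and the members' median was 1.06 against -0.07 over all genes. In the same comparison 9 of 10 RPE markers (median 1.96), 10 of 10 sclera and fibroblast markers (median 2.13) and 8 of 8 macrophage markers (median 1.36) were higher and 10 of 10 surface epithelium markers lower (median -5.29). Their part in these results was not tested.

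On the VAD diet, the libraries labelled *Stra6-/-* were set against WT. *Bmp2* was 7.34-fold higher (2.88 ± 0.11, adjusted p = 5.19e-15), *Bmp4* 3.94-fold (1.98 ± 0.19, adjusted p = 1.79e-08), *Tgfb2* 3.90-fold (1.96 ± 0.22, adjusted p = 1.05e-07), *Tgfb3* 2.59-fold (1.37 ± 0.29, adjusted p = 4.06e-04) and *Bmp7* 2.52-fold (1.33 ± 0.11, adjusted p = 2.01e-09), whereas *Tgfbi* was 5.96-fold lower (-2.58 ± 0.19, adjusted p = 1.78e-10). These 6 of 8 compare with 55.9% of all genes (26.2% higher and 29.6% lower), and none of the 6 overlapped between groups (37.4% of all genes). *Tgfb1* did not pass (0.14 ± 0.13, adjusted p = 0.378), but it did without VAD WT replicate 4 (adjusted p = 0.0342) and without replicates 2 and 4 (0.43 ± 0.08, adjusted p = 7.99e-05). Without them the other log2 fold changes were 2.99 ± 0.11 for *Bmp2*, 1.52 ± 0.09 for *Bmp4*, 2.49 ± 0.09 for *Tgfb2*, 2.12 ± 0.05 for *Tgfb3*, 1.13 ± 0.09 for *Bmp7* and -3.04 ± 0.06 for *Tgfbi*, where 63.1% of all genes passed. RPE markers had a median of 3.30 here, sclera and fibroblast markers 1.29 and surface epithelium markers -4.82, and their part was not tested. Both comparisons of the libraries labelled VAD *Stra6-/-* share those 5 libraries. *Xist* and *Ddx3y* differed in both as well, and what lies behind that division was not tested.

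**Figure D4:**
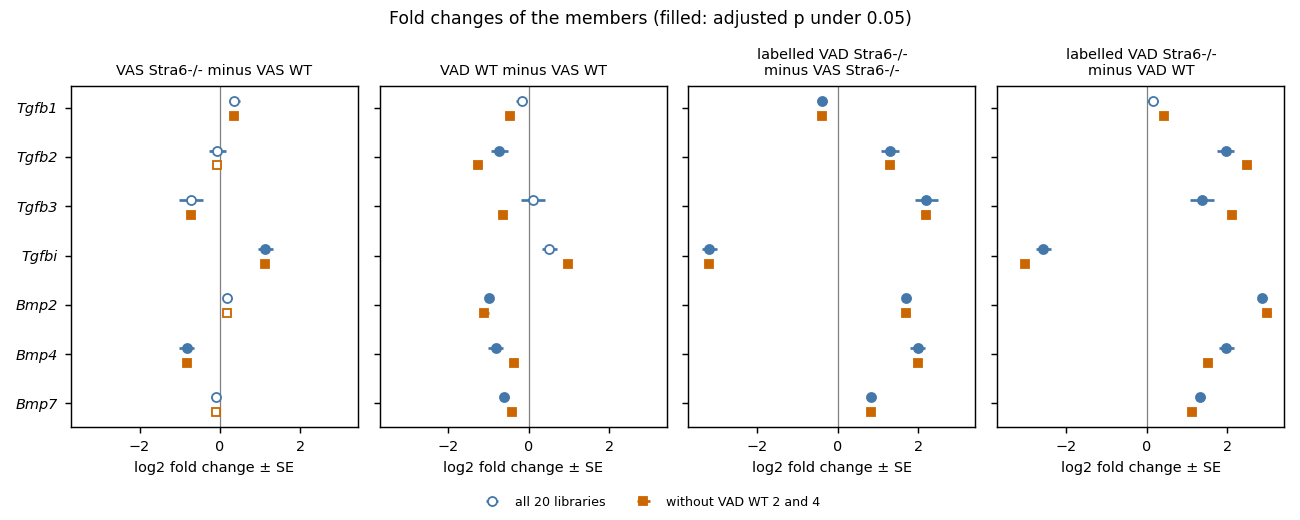
Log2 fold change ± SE of 7 members in 4 comparisons, with all 20 libraries (circles) and without VAD WT replicates 2 and 4 (squares); filled symbols have an adjusted p under 0.05 (limma). *Inhba* is left out because of its low counts. *Tgfb3* in VAD WT against VAS WT is the one value whose sign differs between the fits, 0.10 against -0.65.

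The diet effect differed between the genotypes for 6 of 8 members by the interaction term of the same fit, where 44.2% of all genes passed (19.5% upward and 24.8% downward). Without VAD WT replicates 2 and 4 the same 6 passed, against 54.7% of all genes. It was 2.81 ± 0.27 for *Bmp4* (adjusted p = 2.93e-08), 2.69 ± 0.15 for *Bmp2* (adjusted p = 8.98e-12), 2.10 ± 0.41 for *Tgfb3* (adjusted p = 2.73e-04), 2.03 ± 0.31 for *Tgfb2* (adjusted p = 1.27e-05) and 1.44 ± 0.16 for *Bmp7* (adjusted p = 2.00e-07), and -3.70 ± 0.27 for *Tgfbi* (adjusted p = 2.92e-10). For *Bmp2*, *Bmp4*, *Bmp7* and *Tgfb2* the change on the VAD diet was downward in WT and upward in the libraries labelled *Stra6-/-*, each past the threshold in the fit of all libraries, with the losses given above for *Bmp4*, *Bmp7* and *Tgfb2* in WT. *Tgfb1* did not pass with all libraries (-0.21 ± 0.19, adjusted p = 0.396) or without replicates 2 and 4 of VAD WT (0.07 ± 0.11, adjusted p = 0.582). By the same term 9 of 10 RPE markers (median 3.42), 9 of 10 sclera and fibroblast markers (median 1.42) and 7 of 8 macrophage markers (median 1.83) were upward. All 10 of 10 surface epithelium markers were downward (median -5.48). Their part in the members' results was not tested.

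Genes whose levels over the 20 libraries were most like those of 7 members were sought among 15545 genes by Pearson's r of log2 values. They were *Fam160b1* (0.958) and *Khsrp* (0.939) for *Tgfb1*, *Col8a1* (0.988) and *Penk* (0.986) for *Tgfb2*, and *Bgn* (0.987) and *Loxl1* (0.981) for *Tgfb3*. *Bgn* encodes the matrix proteoglycan biglycan and *Loxl1* an elastin cross-linking enzyme. For *Bmp2* they were *Reln* (0.992) and the RPE opsin *Rgr* (0.989), for *Bmp4* *Fap* (0.987) and *Clcn2* (0.975), for *Bmp7* *Slc6a13* (0.962) and *Slc4a5* (0.953), and for *Tgfbi* *Mknk2* (0.996) and the transglutaminase *Tgm2* (0.992). These coefficients are descriptions over libraries that share group and tissue make-up.

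The other genes of the pathway were counted in 7 lists holding 89 genes, of which 4 stand in more than 1 list. The shares of all genes given above for each comparison are the background to these counts: 15.9% higher and 10.8% lower without *Stra6* on the VAS diet, 3.29% and 5.5% in VAD WT against VAS WT, 24.4% and 28.8% in the libraries labelled VAD *Stra6-/-* against VAS *Stra6-/-*, and 26.2% and 29.6% against VAD WT. The marker lists that moved in each comparison moved beside these genes too, and their part was not tested. For VAD WT against VAS WT the counts without replicates 2 and 4 are given second, where 17.6% of all genes were higher and 20.3% lower. Of 19 tested ligands outside the members, 2 rose and 1 fell with loss of *Stra6* on the VAS diet. *Inhbb*, the other activin beta subunit, rose from 140.4 ± 49.1 to 418 ± 35.0 (1.65 ± 0.36, adjusted p = 0.00162), *Gdf15* rose (1.23 ± 0.36, adjusted p = 0.0131), and the inhibin subunit *Inha* fell (-0.99 ± 0.16, adjusted p = 9.71e-05). In WT on the VAD diet 1 fell with all libraries in the fit, *Gdf11* (-1.74 ± 0.52, adjusted p = 0.0390), which did not pass by edgeR, and 3 fell without replicates 2 and 4. In the libraries labelled VAD *Stra6-/-* against VAS *Stra6-/-*, 4 were higher, *Gdf10* (2.75 ± 0.36) and *Bmp6* (2.44 ± 0.41) among them, and 3 lower, with *Bmp3* at -2.94 ± 0.60.

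Of 13 receptors 6 rose without *Stra6* on the VAS diet, the type I receptor *Tgfbr1* from 991 ± 105 to 1892 ± 28.3 (0.94 ± 0.09, adjusted p = 2.89e-07), *Acvr1b* (0.88 ± 0.22) and the coreceptor betaglycan, *Tgfbr3* (0.67 ± 0.17). In VAD WT limma called 0 of 13, with 2 at an unadjusted p under 0.05 and 0 by edgeR, but 2 were higher and 8 lower without replicates 2 and 4. In the libraries labelled VAD *Stra6-/-* against VAS *Stra6-/-*, 5 were higher, such as *Tgfbr3* (1.05 ± 0.17) and *Tgfbr2* (0.88 ± 0.27), and 3 lower, *Acvr1b* (-1.84 ± 0.22) among them.

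Of 12 genes of latency and activation, 7 were higher and 1 lower in the libraries labelled VAD *Stra6-/-* against either VAS *Stra6-/-* or VAD WT, and 9 and 2 against VAD WT without replicates 2 and 4. The integrin subunits *Itgb8* and *Itgav*, which together form a receptor that activates latent TGF-beta, rose against VAS *Stra6-/-* from 47.97 ± 6.42 to 624 ± 233 (3.61 ± 0.82, adjusted p = 8.18e-04) and from 2387 ± 209 to 7470.2 ± 521 (1.65 ± 0.08, adjusted p = 1.97e-13), and thrombospondin 1, *Thbs1*, by 1.99 ± 0.39. In WT on the VAD diet 1 rose and 2 fell, *Itgav* among them (-0.51 ± 0.08, adjusted p = 2.12e-04), and 1 rose and 8 fell without replicates 2 and 4. On the VAS diet 3 of 12 rose and 3 fell without *Stra6*, with *Lrrc32* at 0.85 ± 0.30, the processing protease *Furin* at 0.68 ± 0.16 and *Ltbp2* at -0.65 ± 0.11.

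Of 13 extracellular antagonists, 8 passed as higher with VAS *Stra6-/-* as the reference for the libraries labelled VAD *Stra6-/-*, and 5 did not pass, and edgeR called 7. The BMP antagonist noggin, *Nog*, rose from 274 ± 24.3 to 1773 ± 25.2 (2.70 ± 0.29, adjusted p = 8.45e-08), *Sostdc1* from 446 ± 31.3 to 2005 ± 145 (2.17 ± 0.25, adjusted p = 1.72e-07) and decorin, *Dcn*, a proteoglycan that binds TGF-beta and is also one of the sclera markers, by 2.84 ± 0.26. In VAD WT *Nog* (-1.34 ± 0.29, adjusted p = 0.00499) and *Sostdc1* (-1.21 ± 0.25, adjusted p = 0.00293) were among 3 that fell, and *Bmper* rose (1.10 ± 0.20, adjusted p = 0.00111). Without replicates 2 and 4, 6 fell and 1 rose.

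Of 14 SMADs and their inhibitors, 7 rose without *Stra6* on the VAS diet and 7 did not pass. Among those that rose were *Smurf1*, a ubiquitin ligase for SMADs (0.68 ± 0.07), *Smad3* (0.52 ± 0.08) and *Skil* (0.86 ± 0.28). In the libraries labelled VAD *Stra6-/-* against VAS *Stra6-/-* 5 of 14 were lower, such as *Smurf1* (-1.32 ± 0.07) and *Smad4*, the SMAD shared by both branches (-0.67 ± 0.07), and 1 was higher. In VAD WT 1 fell, the decoy receptor *Bambi* (-0.49 ± 0.11), while 7 fell and 1 rose without replicates 2 and 4.

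The target lists were read beside the ligands without drawing activity from them. Of 10 BMP targets 6 fell without *Stra6* on the VAS diet, *Atoh8* (-0.92 ± 0.14), *Msx1* (-0.91 ± 0.28) and *Hey1* (-0.70 ± 0.18) among them, and 5 fell in VAD WT, *Id1* from 2668 ± 94.2 to 1616 ± 86.8 (-0.72 ± 0.08, adjusted p = 1.47e-06). Without replicates 2 and 4 of VAD WT 7 fell and 1 rose. In the libraries labelled VAD *Stra6-/-* 3 were higher than in VAS *Stra6-/-*, *Hey1* (1.00 ± 0.18), *Id2* (0.70 ± 0.15) and *Id3* (0.64 ± 0.13). Of 12 TGF-beta targets 7 were higher in this comparison and 1 lower, with *Col1a2* (2.19 ± 0.30) and *Acta2* (1.94 ± 0.11) also being markers of fibroblasts and of smooth muscle. Against VAD WT 8 were higher by limma, *Ctgf* (2.10 ± 0.50) among them, while edgeR called 5 of the list in either direction, and without replicates 2 and 4 limma called 10 higher and 1 lower. In VAD WT against VAS WT 4 rose, such as *Fn1* (1.00 ± 0.08, adjusted p = 3.16e-08) and *Col1a1* (1.44 ± 0.25), and 1 fell. *Col1a1* is also one of the sclera and fibroblast markers. Leaving out replicates 2 and 4 of VAD WT put *Col1a1* at 0.80 and *Fn1* at 0.85. Without replicates 2 and 4 of VAD WT 4 rose and 7 fell.

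**Figure D5:**
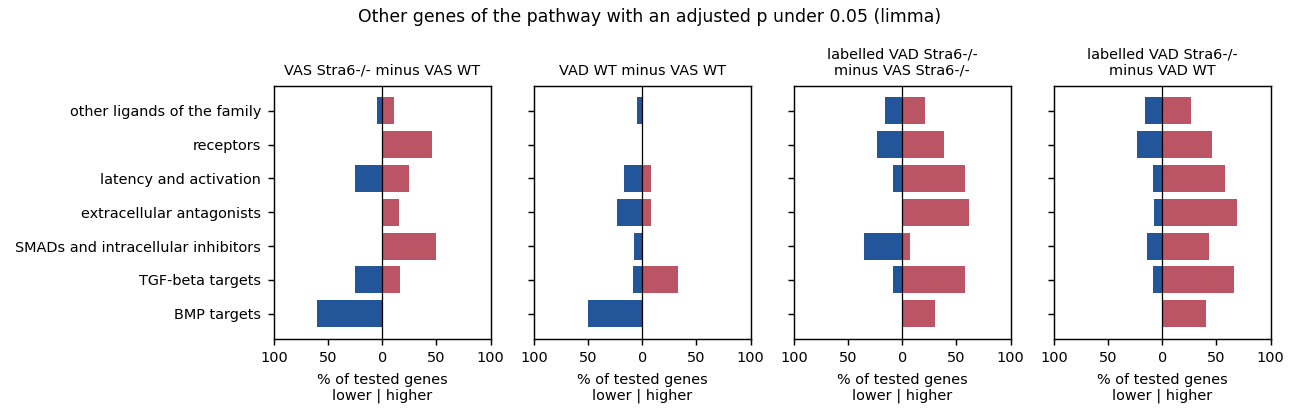
Percent of the tested genes of each pathway list that were higher (right) or lower (left) with an adjusted p under 0.05 (limma, all 20 libraries) in 4 comparisons. BMP targets lie on the lower side in the first 2 panels, with 6 and 5 of 10 genes, and 8 and 9 of 13 antagonists on the higher side in the panels of the libraries labelled VAD *Stra6-/-*.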

How the data were processed

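RNA of 20 outer eyecup samples was sequenced. The authors aligned reads with STAR 2.5.3a to GRCm38/mm10 and counted genes with RSEM 1.2.30, per the labels and methods. The signal the authors deposited is the gene count divided by 1 DESeq2 1.32.0 size factor per library. In all 20 libraries the values are whole multiples of 1 step (tolerance 0.01), which gives back reads. Replicate 1 labelled VAD *Stra6-/-* has a step close to 1 (1.0075) and was left out of the edgeR and DESeq2 tests on reads, which used 19 libraries. Its recovered reads did enter the filter, the alternative scaling and the check of sampling noise.

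Limma 3.58.1 (R 4.3.3) was fitted on log2(value + 1) with 4 group means and a trend, on genes with at least 5 reads in total. Benjamini-Hochberg adjustment ran over 18807 genes, and a call is an adjusted p under 0.05. The added 1 understates changes of low genes. EdgeR 4.0.16 and DESeq2 1.42.0 on reads, scaling, pseudocount, filter, libraries in the fit and the call rule were alternatives. Tests were tried on simulated data with the same spread in every gene and group and changes in VAS *Stra6-/-* only. The divided VAD WT group is unlike that setting, so the trial does not cover it. The labels say that replicates are biological. Same-numbered libraries of different groups did not deviate together (correlations from -0.134 to 0.0948 over 30 pairs), so numbers were not taken as pairs. No pair of libraries agreed within sampling noise.

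The members, lists and rules were chosen with earlier results of these data known. In each list and comparison, up to 3 genes with the largest change among those called with a mean of at least 50 in a group could be named. Likeness was searched among genes with a mean of at least 10. The single values of 2 genes that these rules name are not reported here. Exon lengths (all annotated exons of a gene joined) and positions are from GENCODE vM21, which uses GRCm38.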

Additional observations from a re-analysis of the deposited data

Results flagged for a closer look

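The effect of the VAD diet differed between the genotypes, by the interaction term across all genes (limma), for *Tgfb2* (2.03 on the log2 scale, the effect in *Stra6-/-* minus that in WT), *Tgfb3* (2.10), *Tgfbi* (-3.70), *Bmp2* (2.69), *Bmp4* (2.81) and *Bmp7* (1.44). Each passed again without VAD WT replicates 2 and 4. Tissue markers differed by this term too, as given above, and their part was not tested.

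One library lay away from the other 4 of its group in 3 of 32 sets of 5 libraries. Chance alone marks about 1 in 20 where values are normally distributed, a rate that does not hold for the low counts of *Inhba*. *Bmp4* was at 1185 in the lowest VAS WT library and at 3571 in the highest of the libraries labelled VAD *Stra6-/-*. *Inhba* was at 8.19 in 1 library labelled VAD *Stra6-/-*, from 8 reads.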

How the results depend on the processing

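Of 1187 member values under the alternatives, 1147 kept their direction and side of the threshold, 23 newly passed, 13 no longer passed and 4 changed sign. The sign changes were *Tgfb3* in VAD WT against VAS WT (-0.18 without VAD WT replicate 2, -0.18 without replicate 4, -0.65 without both; -0.18 to 0.30 without any 1 library) and the interaction of *Tgfb1* (0.074 without both). With only the 2 groups in the fit, 4 members and 8208 genes were called for VAS *Stra6-/-* against VAS WT, and 1 member (*Bmp2*) and 639 genes for VAD WT against VAS WT, where *Bmp4* (adjusted p = 0.159), *Bmp7* (0.0625) and *Tgfb2* (0.290) were lost. *Tgfb2* there was also lost by DESeq2 (0.0667) and without any 1 of 8 libraries. Without VAD WT replicates 2 and 4, these counts were 4 and 7524, and 7 and 7124. Beyond a log2 fold change of 1, they were 1 and 926 for the first comparison, 0 and 328 for the second, and 4488, 5064 and 4613 genes for the libraries labelled VAD *Stra6-/-* against VAS *Stra6-/-*, against VAD WT, and the interaction. Beyond 2 they were 0 and 207, 0 and 77, 2 and 1707, 2 and 1952, and 1960 genes for the interaction. Each 0 held for limma at an unadjusted p under 0.05 and for edgeR. In the order above, all libraries gave 5010, 1652, 10004, 10504 and 8319 genes. Leaving out 1 library gave 2 to 4 members and 4282 to 5575 genes, 3 to 5 and 1260 to 2651, 7 and 9495 to 10408, 6 to 7 and 10002 to 10908, and 6 to 7 and 7904 to 8852; the 4 came without VAD WT replicate 2 or 4, and 2651 without replicate 4. The replicate block gave 2, 4, 7, 6 and 6 members and 4820, 1446, 9937, 10423 and 8193 genes, and 2 of 20 libraries correlated best with their own number. TMM scaling moved the median of all genes by at most 0.02 in size (-0.02). Depth limits *Inhba*, at 16 reads or fewer per library.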
